A study of Rattus norvegicus with 29 samples.

Results

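Oxidative phosphorylation genes encode the machinery with which mitochondria turn the energy of electrons taken from food into ATP. They were followed here in the basolateral amygdala of the rat, a brain region needed for learned fear. The members were all probe sets, other than array controls, whose single annotated symbol starts with Nduf, Uqcr, Atp5 or Cox followed by a digit from 4 to 8, or is Cyc1 or one of Sdha to Sdhd. This gave 90 probe sets of 85 genes, out of 15866 probe sets on the array. Of these, 82 probe sets of 81 genes were bright enough to be tested among 9520 probe sets in all. By complex, 41 of 42 probe sets of complex I were tested, 5 of 5 of complex II and 8 of 8 of complex III. For complexes IV and V the counts tested were 12 of 16 and 16 of 19. The rule reads gene names only, and the group was chosen with earlier results of these data known.

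The series held 29 arrays of total RNA, 1 array per sample. Of these, 5 were taken 6 h after pain, a component of conditioning, and 5 were taken 6 h after isoflurane, an inhaled anaesthetic that blocks the forming of memory. Another 5 were taken 6 h after fear conditioning, which teaches a rat that a cue announces pain, and 5 were taken 6 h after conditioning in the presence of isoflurane. The other 9 were baseline controls, for which the labels give no time. Strain, age, sex and the protocol of the shock are not given in the sources used here. Rat numbers are given for 15 arrays only, those of pain and of both conditioning groups, so the p-values measure the spread between these samples, part of which may be technical. A labelling kit is named for the isoflurane and baseline arrays only. Whether the other 3 groups had another kit is not stated. Kit and group therefore cannot be told apart in the contrasts of those groups with baseline or with isoflurane. The samples of isoflurane alone are numbered apart from all others in the series. Whether they were processed apart is not stated, so batch and isoflurane cannot be told apart in the contrasts that use those arrays.

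The arrays had been scaled by the authors to nearly one trimmed mean each, between 500.08 and 500.12, and their median signals lay between 210.7 and 292.2. All pairs of arrays correlated between 0.885 and 0.977, and 0 pairs were identical. Pain replicate 3 stood apart, with an array quality weight of 0.25 in limma against 0.67 to 1.70 on the other 28 arrays. Values below are log2 of the quantile-normalised signal. A difference of 1 on this scale is a doubling, and levels of different probe sets are not set against each other, since each probe set has its own brightness. Of the marker probe sets of the labelled tissue, 8 of 9 for projection neurons and 7 of 7 for neurons in general were bright enough to be tested. The summed signal of choroid plexus markers, from outside the region, reached 15970 on 1 baseline array, against a baseline median of 475. Such sums add the unlogged signal of all probe sets of a list, tested or not, so the brightest probe sets weigh most. Astrocyte, oligodendrocyte, microglial, striatal, GABAergic, vascular and blood markers lay higher or lower in some of the groups. In any contrast 0 of their tested probe sets were called. Some of their counts stand with each comparison below, and a type not listed there was not necessarily unmoved. In tissue of this kind, fewer cells of a type and less RNA per cell cannot be told apart.

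Complex I, the NADH dehydrogenase, and complex II, the succinate dehydrogenase, feed electrons into the chain. Complex III hands them to cytochrome c, complex IV passes them to oxygen, and complex V, the ATP synthase, uses the resulting proton gradient to make ATP. Neurons depend on this route for the ATP that drives ion pumps and synaptic transmission. The subunits measured here are encoded in the nucleus, by genes spread over 20 chromosomes of the rat genome (RefSeq, GRCr8), and are imported into the mitochondrion. The basolateral amygdala is built mainly of glutamatergic projection neurons with interneurons and glia.

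No member passed the threshold of an adjusted p under 0.05 in any of the 8 contrasts examined. By limma with Benjamini-Hochberg adjustment over 9520 probe sets, 0 of 82 members were called in each contrast. Over all tested probe sets the share called was 0% in 7 contrasts and 0.0105% in isoflurane minus baseline, where 1 probe set, not a member, was called. The F test over the 5 groups called 0 members, with 0% called over all probe sets. At an unadjusted p under 0.05 it gave 4 of 82 members (4.88%), below the 7.35% over all 9520 probe sets. The lowest F test p among members were 0.0179 for Ndufb11, 0.0191 for Ndufaf3, 0.0408 for the Sdhd probe set 1388294_at, 0.0415 for Ndufv3 and 0.0554 for Ndufab1.

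The members were measured more tightly than most of the array. Their median residual standard deviation was 0.132, against 0.227 over all tested probe sets, and the median standard error of a contrast with baseline was 0.0761 against 0.127. Their median log2 signal was 11.69, against 8.98 over all tested probe sets; this is probe brightness, not transcript abundance.

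The direction of the members was uneven between the groups. After conditioning under isoflurane 61 of 82 members were lower than at baseline, with a median log2 difference of -0.050, against a median of 0.0037 over all tested probe sets. After conditioning 54 of 82 were lower, with a median of -0.038, against -0.00050 over all. After pain 50 of 82 were lower, with a median of -0.016, against -0.0025 over all. After isoflurane 39 of 82 were lower, with a median of 0.0063, against 0.0029 over all. These 4 contrasts share the 9 baseline arrays and are not independent of one another. The medians shifted with the baseline arrays used. Against baseline replicates 1 to 5 alone they were -0.0049 in pain, 0.018 in isoflurane, -0.033 in conditioning and -0.031 in conditioning under isoflurane. Against baseline replicates 6 to 9 alone they were -0.031, -0.026, -0.072 and -0.061 in the same order. At these sizes the differences are a few percent of the signal.

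**Figure D1:**
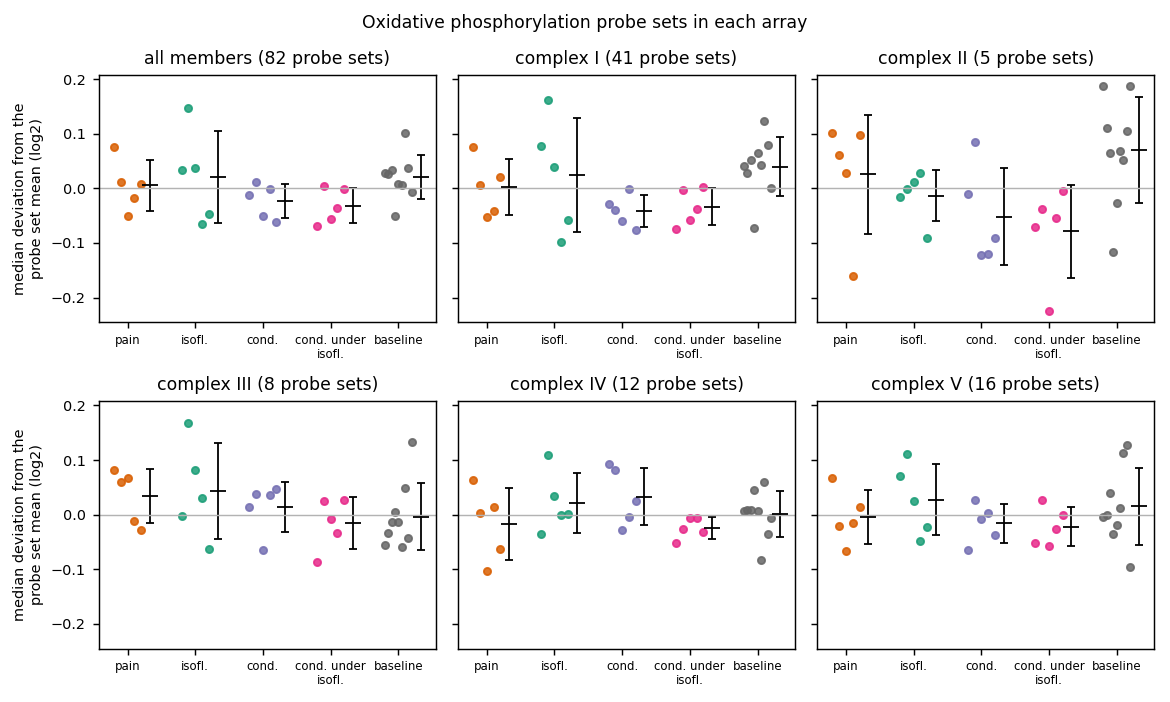
Median deviation of the tested probe sets from their own mean over the 29 arrays, in log2 units, for all 82 members and for each complex. Each point is 1 array, and the bar to its right is the mean ± SD of the group. The arrays of conditioning under isoflurane lie at or below 0.0034 for all members, and those of every group overlap the baseline arrays.

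Each array was summarised by the median deviation of the 82 members from their own means over the 29 arrays. The values were -0.070, 0.0034, -0.056, -0.035 and -0.0012 on the arrays of conditioning under isoflurane, and -0.012, 0.011, -0.051, -0.0020 and -0.061 on those of conditioning. Isoflurane arrays gave 0.034, 0.147, 0.038, -0.065 and -0.047, and pain arrays gave 0.075, 0.012, -0.051, -0.018 and 0.0084. Baseline arrays had a lowest value of -0.051, a median of 0.026 and a highest value of 0.101. Thus the arrays of both conditioning groups lay low, isoflurane arrays were spread on both sides, and every group overlapped baseline. The group means were 0.0054 ± 0.046 for pain, 0.021 ± 0.084 for isoflurane, -0.023 ± 0.031 for conditioning and -0.032 ± 0.033 for conditioning under isoflurane (SD, n = 5 each), against 0.021 ± 0.041 for baseline (SD, n = 9).

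Conditioning under isoflurane minus baseline asks what differs 6 h after conditioning in the presence of the anaesthetic. At an unadjusted p under 0.05, 11 of 82 members (13.4%) were lower, against 3.26% over all tested probe sets, and 0 were higher, against 3.25% over all. None of these 11 passed the adjusted threshold, and the lowest adjusted p among members was 0.603. The count of 11 became 7 (8.54% of members, against 2.42% over all) without conditioning under isoflurane replicate 1. It was 5 (6.10%, against 2.38% over all) when only baseline replicates 1 to 5 were used. It was 18 (22.0%, against 6.85% over all) when only baseline replicates 6 to 9 were used, a setting in which 57 of all tested probe sets and 0 members were called. Array weights also gave 18 (22.0%, against 5.04% over all). Members whose arrays did not overlap between the groups numbered 0, against 0.221% of all tested probe sets.

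Complex II, which oxidises succinate to fumarate in the citric acid cycle and passes the electrons to ubiquinone, had all 5 of its probe sets lower in this contrast. Their median was -0.16. Against baseline replicates 1 to 5 alone 4 of 5 were lower, with a median of -0.14, and against replicates 6 to 9 alone 5 of 5, with a median of -0.19. Sdha, the flavoprotein that holds the catalytic site, gave 11.60, 11.35, 11.45, 11.18 and 11.53 after conditioning under isoflurane, against a lowest, median and highest value of 11.42, 11.73 and 11.87 at baseline. Of those 5 arrays 5 lay below the baseline mean, while the groups overlapped. The log2 difference was -0.25 (SE 0.098, adjusted p = 0.690). Sdhc, a membrane anchor of the complex, gave 11.32, 11.64, 11.28, 11.03 and 11.01, against 11.24, 11.61 and 11.79 as lowest, median and highest at baseline. Replicate 2 sat above the baseline mean and the other 4 arrays below it, for a difference of -0.27 (SE 0.10, adjusted p = 0.690). This was -0.14 against baseline replicates 1 to 5 alone and -0.42 against replicates 6 to 9 alone.

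Sdhd, the other anchor, has 2 tested probe sets. Probe set 1388294_at gave 10.86, 10.97, 10.81, 11.05 and 10.94 after conditioning under isoflurane, against 10.93, 11.10 and 11.22 as lowest, median and highest at baseline, a difference of -0.16 (SE 0.057, adjusted p = 0.635). Probe set 1371296_at gave 10.17, 10.24, 10.01, 10.22 and 10.42, against 9.97, 10.26 and 10.49 at baseline, a difference of -0.079 (adjusted p = 0.907), and -0.028 without conditioning under isoflurane replicate 3. The probe sets differed in sign after pain, with -0.042 for 1388294_at and 0.0083 for 1371296_at, and after isoflurane, with -0.015 and 0.040 in the same order. Sdhb, the iron-sulphur subunit, gave 11.44, 11.52, 11.21, 11.48 and 11.66 after conditioning under isoflurane, against 11.31, 11.55 and 11.76 at baseline. Its difference was -0.071 with a 95% interval of -0.25 to 0.11, which includes 0. It was 0.021 against baseline replicates 1 to 5 alone, -0.19 against replicates 6 to 9 alone and -0.0086 without conditioning under isoflurane replicate 3.

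All 5 probe sets of complex II were also lower after conditioning than at baseline, with a median of -0.12, and 1 of them had an unadjusted p under 0.05. With baseline replicates 1 to 5 alone 4 of 5 were lower there, with a median of -0.073. After isoflurane, 3 of 5 were lower, and both Sdha (-0.23) and Sdhc (-0.23) had all 5 arrays below the baseline mean (adjusted p = 0.922 each). That of Sdhc was -0.11 against baseline replicates 1 to 5 alone and -0.39 against replicates 6 to 9 alone. Isoflurane arrays of Sdha read 11.45, 11.25, 11.52, 11.56 and 11.45, and those of Sdhc 11.34, 11.39, 11.20, 11.27 and 11.25. The median deviation of complex II per array ran from -0.22 to -0.0055 after conditioning under isoflurane and from -0.12 to 0.084 after conditioning. At baseline it ran from -0.12 to 0.19, so the groups overlapped. The 5 probe sets of complex II stand for 4 genes and were measured on the same arrays, so they are not 5 separate observations of a condition.

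The start regions of the complex II genes, of Cox4i1 and of Ndufa13 are shown because all 5 probe sets of complex II were lower in conditioning under isoflurane minus baseline and because Cox4i1 and Ndufa13 stood among the members with the lowest p there. They are RefSeq sequences of build GRCr8, from 250 bases before to 50 bases after the start that the RefSeq table uses, written along the strand of the gene. That start is the first base of the gene record in all but Sdhb, where it lies 159 bases inside the record. Capitals mark matches on either strand to GCGCANGC for NRF1, to CCGGAAG for GABP and other ETS factors, or to AAGATGGC for YY1. These are short forms of the recognition sequences, and other forms were not searched or marked. NRF1, GABP and YY1 are factors with known targets among nuclear genes of mitochondria, and no capitals overlap between different motifs in the sequences shown. The regions are chr1:30764303-30764602 (plus strand) for Sdha, chr5:158547684-158547983 (plus) for Sdhb and chr13:86097976-86098275 (minus) for Sdhc. They are chr8:59850592-59850891 (minus) for Sdhd, chr19:65630133-65630432 (plus) for Cox4i1 and chr16:19560276-19560575 (plus) for Ndufa13.
Sdha: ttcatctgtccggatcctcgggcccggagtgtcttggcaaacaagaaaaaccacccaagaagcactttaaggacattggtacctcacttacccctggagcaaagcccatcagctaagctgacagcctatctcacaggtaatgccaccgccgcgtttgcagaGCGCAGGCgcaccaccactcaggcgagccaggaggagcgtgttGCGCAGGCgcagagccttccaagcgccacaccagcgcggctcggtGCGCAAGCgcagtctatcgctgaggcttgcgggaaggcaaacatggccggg
Sdhb: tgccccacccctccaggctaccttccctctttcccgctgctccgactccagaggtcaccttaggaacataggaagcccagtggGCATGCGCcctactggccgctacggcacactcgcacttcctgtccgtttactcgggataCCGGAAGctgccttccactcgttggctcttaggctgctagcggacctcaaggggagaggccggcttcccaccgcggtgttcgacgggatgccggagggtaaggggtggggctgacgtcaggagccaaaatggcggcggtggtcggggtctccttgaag
Sdhc: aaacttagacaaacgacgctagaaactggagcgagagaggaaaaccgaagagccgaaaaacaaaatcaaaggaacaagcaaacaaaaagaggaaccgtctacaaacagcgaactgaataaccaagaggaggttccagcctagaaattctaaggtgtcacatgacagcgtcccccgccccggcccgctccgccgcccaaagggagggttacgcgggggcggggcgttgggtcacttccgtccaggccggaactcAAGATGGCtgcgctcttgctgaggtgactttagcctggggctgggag
Sdhd: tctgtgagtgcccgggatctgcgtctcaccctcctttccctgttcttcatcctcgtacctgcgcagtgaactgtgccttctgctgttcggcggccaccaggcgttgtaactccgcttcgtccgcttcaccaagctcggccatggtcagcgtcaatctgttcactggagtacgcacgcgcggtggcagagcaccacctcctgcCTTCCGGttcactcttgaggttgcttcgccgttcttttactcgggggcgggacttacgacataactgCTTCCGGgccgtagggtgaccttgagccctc
Cox4i1: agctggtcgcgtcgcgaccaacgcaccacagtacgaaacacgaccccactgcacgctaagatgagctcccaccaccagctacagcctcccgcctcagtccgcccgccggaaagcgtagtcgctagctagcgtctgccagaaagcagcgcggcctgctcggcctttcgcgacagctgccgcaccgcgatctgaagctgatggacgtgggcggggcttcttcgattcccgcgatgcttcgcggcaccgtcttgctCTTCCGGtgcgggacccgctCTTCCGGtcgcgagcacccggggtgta
Ndufa13: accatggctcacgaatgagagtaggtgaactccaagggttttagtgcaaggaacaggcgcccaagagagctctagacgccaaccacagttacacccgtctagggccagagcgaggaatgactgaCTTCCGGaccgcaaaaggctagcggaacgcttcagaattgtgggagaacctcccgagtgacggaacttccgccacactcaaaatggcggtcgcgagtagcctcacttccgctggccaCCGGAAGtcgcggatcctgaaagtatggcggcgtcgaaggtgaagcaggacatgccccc

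In these regions Sdha held 3 matches to the NRF1 sequence, the first starting 89 bases before the start used. Sdhb held 1 NRF1 match and 1 ETS match, and Sdhc held 1 YY1 match just after the start. Sdhd, Cox4i1 and Ndufa13 held 2 ETS matches each. Over the 76 of 85 member genes that had a region in the table, 22 (28.9%) held the NRF1 sequence, 21 (27.6%) the ETS sequence and 17 (22.4%) the YY1 sequence. Over the 27457 genes in that table the shares were 9.67%, 9.22% and 3.44% in the same order. At least 1 of the 3 motifs was found in 46 of 76 members (60.5%), against 5350 of all genes (19.5%). A match is a stretch of letters and was not tied to binding or to the values measured here.

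**Figure D2:**
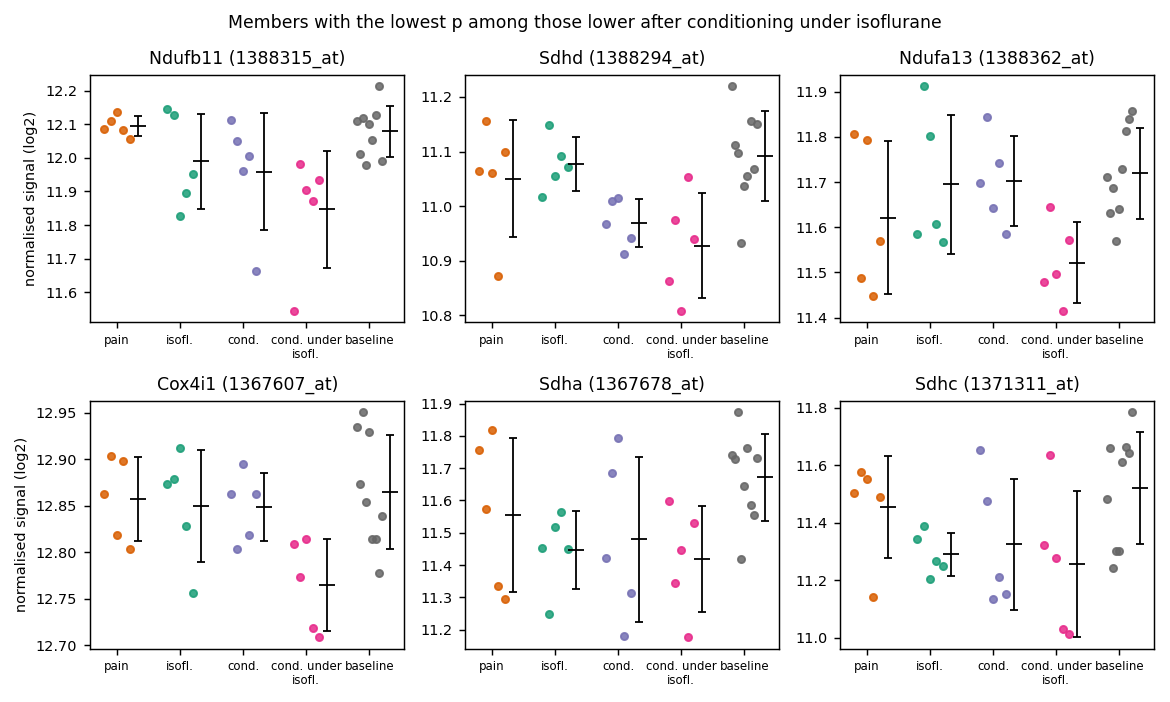
Normalised log2 signal of the 6 member probe sets with the lowest p among those lower in conditioning under isoflurane minus baseline. Each point is 1 array, with the mean ± SD of the group beside it, and the vertical axes are cut to the range of each probe set. Cox4i1 reads 12.71 to 12.81 after conditioning under isoflurane, within the lower part of the other groups or just below it.

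Complex I, the largest complex, had 32 of 41 probe sets lower after conditioning under isoflurane than at baseline, with a median of -0.078, and 5 of these at an unadjusted p under 0.05. All 5 encode accessory subunits, which surround the catalytic core, as do 28 of the 41 tested probe sets of the complex. Ndufb11, an accessory subunit of the membrane arm, had the lowest p of all members in this contrast. It gave 11.54, 11.98, 11.90, 11.87 and 11.93, against a lowest, median and highest value of 11.98, 12.10 and 12.21 at baseline. Replicate 1 was well below the other 4 arrays. The difference was -0.23 (SE 0.070, adjusted p = 0.603), and -0.16 without replicate 1.

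Ndufa13, another accessory subunit, also known as GRIM-19, gave 11.48, 11.65, 11.50, 11.41 and 11.57 after conditioning under isoflurane, against 11.57, 11.71 and 11.86 as lowest, median and highest at baseline. All 5 arrays lay below the baseline mean, for a difference of -0.20 (SE 0.071, adjusted p = 0.641), which was -0.13 against baseline replicates 1 to 5 alone. Ndufa11 gave 10.21, 10.66, 10.80, 10.72 and 10.78, against 10.50, 10.98 and 11.11 at baseline, a difference of -0.29 (SE 0.13, adjusted p = 0.730). Here too replicate 1 was the lowest array, and the difference was -0.18 without it. The core subunits that carry electrons from NADH towards ubiquinone were mostly lower too: 4 of 6 lay below baseline, 0 at an unadjusted p under 0.05, with a median of -0.035. Ndufv1, which binds NADH, had a difference of -0.055 (95% interval -0.26 to 0.15), and Ndufs1, the largest iron-sulphur subunit, one of -0.034 (-0.20 to 0.13). Ndufa4, placed here with complex I by its symbol although it is now regarded as a subunit of complex IV, had one of -0.088 (-0.20 to 0.028).

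In complex III, 5 of 8 probe sets were lower after conditioning under isoflurane than at baseline, with a median of -0.027 and 0 at an unadjusted p under 0.05 in either direction. Cyc1, the cytochrome c1 that passes electrons to cytochrome c, had a difference of -0.048 (95% interval -0.19 to 0.091). Uqcrfs1, the Rieske iron-sulphur protein, had one of -0.043 (-0.18 to 0.098). The core proteins Uqcrc1 and Uqcrc2, which carry no electrons, had 0.10 (-0.048 to 0.25) and -0.012 (-0.16 to 0.13). Uqcr10, a small subunit, was among the 3 members with the lowest p on the higher side (0.18, SE 0.13, adjusted p = 0.845). Its difference was 0.32 against baseline replicates 1 to 5 alone and -0.0027 against replicates 6 to 9 alone.

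Complex IV had 8 of 12 probe sets lower, with a median of -0.022. Cox4i1, the common isoform of subunit 4, through which the oxidase responds to ATP, gave 12.81, 12.77, 12.81, 12.72 and 12.71 after conditioning under isoflurane, against 12.78, 12.85 and 12.95 as lowest, median and highest at baseline. Its arrays were tightly grouped, and the difference of -0.10 (SE 0.039, adjusted p = 0.690) amounted to -6.73% of the signal. Against baseline replicates 6 to 9 alone it was -0.046. Cox5a, a common subunit, gave 7.59, 7.59, 7.57, 7.70 and 7.75, against 7.36, 7.91 and 8.93 at baseline, a difference of -0.41 (SE 0.25), or -0.26 against baseline replicates 6 to 9 alone. This probe set lay near the filter and was widely spread in the other groups. Cox5b (0.012, 95% interval -0.092 to 0.12), Cox6a1 (-0.032, -0.14 to 0.073), Cox6c (-0.047, -0.21 to 0.12) and Cox8a (-0.063, -0.15 to 0.028) had intervals that include 0. Cox7a1, the isoform best known from heart and skeletal muscle, gave 7.94, 7.79, 8.08, 8.03 and 8.14, against 7.24, 7.61 and 8.03 at baseline. All 5 arrays lay above the baseline mean, for a difference of 0.38 (SE 0.21, adjusted p = 0.796). The baseline arrays were split, and the difference was 0.14 against replicates 1 to 5 alone and 0.68 against replicates 6 to 9 alone.

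In complex V, 11 of 16 probe sets were lower, with a median of -0.049. Atp5f1a, the alpha subunit of the F1 head, gave 12.23, 12.35, 12.18, 12.34 and 12.37 after conditioning under isoflurane, against 12.34, 12.44 and 12.55 as lowest, median and highest at baseline, a difference of -0.14 (SE 0.057, adjusted p = 0.692). Atp5pd, of the peripheral stalk that holds the head in place, gave 12.04, 12.06, 11.81, 12.10 and 12.17, against 11.93, 12.18 and 12.34 at baseline, a difference of -0.14 (SE 0.062, adjusted p = 0.743). Both were at an unadjusted p under 0.05, and in both the groups overlapped. For Atp5pd the difference was -0.062 against baseline replicates 1 to 5 alone, -0.23 against replicates 6 to 9 alone and -0.080 without conditioning under isoflurane replicate 3. Atp5f1b, the catalytic beta subunit, had a difference of -0.081 (95% interval -0.18 to 0.022), Atp5f1d one of -0.11 (-0.23 to 0.013) and the stalk subunit Atp5pb one of -0.18 (-0.38 to 0.015). Atp5f1c, the gamma subunit of the rotor, had one of -0.0019 (-0.12 to 0.11). The stalk subunit Atp5po lay on the other side, at 0.12 (SE 0.066, adjusted p = 0.800), with 4 of 5 arrays above the baseline mean. Atp5if1, the inhibitor that binds the head when the gradient collapses, gave 10.72, 11.04, 10.74, 11.02 and 10.79, against 10.67, 10.92 and 11.10 at baseline.

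**Figure D3:**
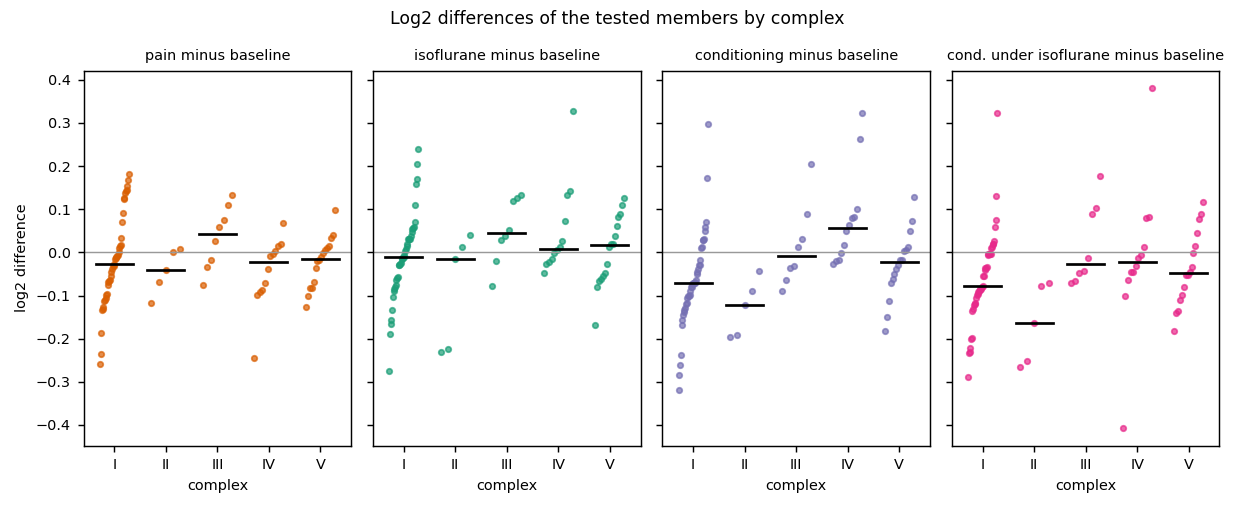
Log2 difference of each tested member probe set from baseline after pain, isoflurane, conditioning and conditioning under isoflurane, by complex. Each point is 1 probe set, sorted within its complex, and the line is the median of the complex. After conditioning under isoflurane the 5 points of complex II lie below 0, with a median of -0.16, and the medians of the other complexes lie between -0.078 and -0.022.

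The medians of complexes I, III and IV in conditioning under isoflurane minus baseline moved by over 1.5 times with the baseline arrays used. Against baseline replicates 1 to 5 alone they were -0.032, 0.0028 and -0.012, and against replicates 6 to 9 alone -0.097, -0.0092 and -0.0053. Without conditioning under isoflurane replicate 3 they were nearer 0 for complex I (-0.043), complex III (-0.0058) and complex V (-0.028), and without replicate 1 for complex IV (-0.0058).

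Conditioning minus baseline asks what differs 6 h after learning. Here 6 of 82 members were lower at an unadjusted p under 0.05 (7.32%), against 5.03% over all tested probe sets, and 3 were higher (3.66%), against 5.12% over all. These shares were near the background with all baseline arrays in the fit. With baseline replicates 1 to 5 alone 2 were lower (2.44%, against 3.38% over all) and 1 higher (1.22%, against 3.57%). With replicates 6 to 9 alone 15 were lower (18.3%, against 8.81% over all) and 4 higher (4.88%, against 9.34%). In complex I, 31 of 41 probe sets were lower, with a median of -0.072, and 5 of its 6 core subunits, with a median of -0.13. Ndufaf3, an assembly factor of complex I, gave 9.20, 8.99, 9.30, 9.19 and 8.68 after conditioning, against 9.22, 9.40 and 9.49 as lowest, median and highest at baseline. All 5 arrays were below the baseline mean, with replicate 5 lowest, and the difference was -0.32 (SE 0.090, adjusted p = 0.415). Ndufab1, the mitochondrial acyl carrier protein, gave 11.29, 10.89, 11.19, 11.21 and 11.02, against 11.13, 11.33 and 11.62 at baseline, a difference of -0.26 (SE 0.098, adjusted p = 0.419). Ndufv1 gave 11.40, 10.95, 11.10, 11.22 and 11.24, against 11.14, 11.41 and 11.70 at baseline, a difference of -0.24, or -0.13 against baseline replicates 1 to 5 alone and -0.38 against replicates 6 to 9 alone.

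Uqcrq, a small subunit of complex III, lay on the other side. It gave 11.95, 11.82, 11.92, 11.79 and 11.80 after conditioning, against 11.43, 11.69 and 11.77 as lowest, median and highest at baseline, so that all arrays of conditioning were above all those of baseline. The difference was 0.20 (SE 0.069, adjusted p = 0.415). It was the only member without overlap in this contrast, 1 of 82, against 0.116% of all tested probe sets. Ndufaf8, another assembly factor of complex I, gave 9.57, 9.72, 9.41, 9.51 and 9.66, against 8.84, 9.24 and 9.68 at baseline, a difference of 0.30 (SE 0.14, adjusted p = 0.485). With baseline replicates 1 to 5 alone its difference was 0.072. With baseline replicates 6 to 9 alone it was 0.58 with an adjusted p of 0.0461, in a setting that called 101 of 9520 probe sets. With all 9 baseline arrays it was not called. Atp5mf, of the membrane part of complex V, had a difference of 0.13 (SE 0.061, adjusted p = 0.488). In complex IV, 8 of 12 probe sets were higher after conditioning, with a median of 0.056, or 0.011 against baseline replicates 1 to 5 alone. Beside these members, 13 of 13 astrocyte, 11 of 11 oligodendrocyte, 7 of 7 microglial and 3 of 3 vascular probe sets were higher in this contrast. Striatal probe sets were lower in 9 of 9 cases and GABAergic ones in 6 of 8.

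Pain minus baseline sets a component of conditioning against baseline. Of 82 members, 2 were lower at an unadjusted p under 0.05 (2.44%), against 4.63% over all tested probe sets, and 3 were higher (3.66%), against 4.33% over all. Ndufs1 gave 10.41, 10.38, 10.39, 10.25 and 10.39 after pain, against 9.88, 10.22 and 10.34 as lowest, median and highest at baseline, a difference of 0.17 (SE 0.081, adjusted p = 0.547). It was 0.062 against baseline replicates 1 to 5 alone and 0.30 against replicates 6 to 9 alone. Ndufs7, which holds the last iron-sulphur cluster before ubiquinone, gave 11.17, 11.16, 11.21, 11.13 and 11.15, against 10.82, 11.02 and 11.15 at baseline, a difference of 0.14 (SE 0.061, adjusted p = 0.502). Ndufa8, an accessory subunit, had a difference of 0.14 (SE 0.058, adjusted p = 0.4995). When each array was centred on its own median, the differences of Ndufs7 and Ndufa8 turned to -0.030 and -0.056, and that of Ndufs1 was 0.0047.

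On the lower side after pain, Ndufb1, a small membrane subunit of complex I, gave 11.01, 11.10, 10.87, 10.81 and 10.82, against 10.99, 11.14 and 11.63 at baseline, a difference of -0.26 (SE 0.11, adjusted p = 0.4995). Ndufv3, an accessory subunit near the NADH site, gave 10.30, 10.25, 9.56, 10.32 and 10.20, against 10.14, 10.36 and 10.64 at baseline. Its difference of -0.24 (SE 0.11, adjusted p = 0.524) became -0.093 without pain replicate 3, the array that stood apart, and was -0.13 and -0.37 against baseline replicates 1 to 5 and 6 to 9. The median over members became 0.0032 without that array. Atp5pf, of the peripheral stalk, had a difference of -0.13 (SE 0.069, adjusted p = 0.576). Members without overlap of arrays between pain and baseline numbered 0, against 0.116% of all tested probe sets. In this contrast 10 of 13 astrocyte, 9 of 11 oligodendrocyte, 6 of 7 microglial, 3 of 3 vascular and 6 of 8 GABAergic probe sets were higher. Lower were 7 of 9 striatal and 6 of 8 projection neuron probe sets, the latter with a median of -0.12. The summed signal of the blood markers ran from 1590 to 2293 after pain, below all baseline arrays (2375 to 6818). That sum rests mostly on the Hbb probe set, with a mean log2 signal of 11.55, against 7.30, 6.98 and 6.59 for the others. Of 2 tested blood probe sets, 1 was lower and 1 was higher.

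Isoflurane minus baseline gave 3 of 82 members lower at an unadjusted p under 0.05 (3.66%), against 2.74% over all tested probe sets, and 1 higher (1.22%), against 2.64% over all. Those 3 were Ndufv3, Sdha and Sdhc. Ndufv3 gave 10.19, 10.12, 10.18, 9.84 and 10.10 after isoflurane, against 10.14, 10.36 and 10.64 at baseline, a difference of -0.28 (SE 0.11, adjusted p = 0.922), or -0.17 against baseline replicates 1 to 5 alone. It was also lower after conditioning (-0.28, adjusted p = 0.419) and after conditioning under isoflurane (-0.23), in contrasts with the same baseline arrays, and against replicates 1 to 5 alone these were -0.18 and -0.13. Atp5mf gave 12.10, 12.34, 12.17, 12.11 and 12.20, against 11.92, 12.04 and 12.22 at baseline, a difference of 0.13 (SE 0.061, adjusted p = 0.922). Uqcrfs1 (0.13, SE 0.069) and the assembly factor Ndufaf4 (0.24, SE 0.13) followed on the higher side, each with an adjusted p of 0.945. Without isoflurane replicate 4 that of Ndufaf4 was 0.14. For Uqcrfs1 the difference was 0.084 without isoflurane replicate 2, 0.080 without baseline replicate 4 and 0.072 against baseline replicates 6 to 9 alone. Members without overlap numbered 0, against 0.137% of all tested probe sets. Of 9 striatal probe sets 7 were lower after isoflurane, while 3 of 3 vascular and 6 of 7 general neuronal probe sets were higher.

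Conditioning minus pain sets learning against a component of it, with no baseline array in the contrast. Of 82 members, 3 were lower at an unadjusted p under 0.05 (3.66%), against 4.31% over all tested probe sets, and 2 were higher (2.44%), against 4.74% over all. The arrays did not overlap for 3 members, against 1.13% of all tested probe sets, and all 3 were lower after conditioning. Ndufs8, an iron-sulphur subunit of the core of complex I, gave 10.38, 10.31, 10.48, 10.35 and 10.51 after conditioning, against 10.56, 10.67, 10.93, 10.57 and 10.68 after pain, a difference of -0.28 (SE 0.089, adjusted p = 0.441). Ndufs7 gave 10.97, 11.08, 11.02, 11.02 and 10.87, against 11.17, 11.16, 11.21, 11.13 and 11.15 after pain, a difference of -0.17 (SE 0.070, adjusted p = 0.521). Atp5pd gave 11.99, 12.07, 12.01, 12.03 and 12.03, against 12.21, 12.22, 12.09, 12.09 and 12.17 after pain, a difference of -0.13 (SE 0.070, adjusted p = 0.557). In each the gap between the nearest arrays was small.

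Also lower in conditioning minus pain was Ndufab1 (-0.23, SE 0.11, adjusted p = 0.548). On the higher side, Cox7a1 gave 7.86, 7.91, 7.96, 8.28 and 7.68 after conditioning, against 6.23, 8.14, 7.24, 7.75 and 7.48 after pain, a difference of 0.57 (SE 0.24, adjusted p = 0.521). The pain arrays were scattered, with replicate 1 far below the rest, and without it the difference was 0.29. Cox7c, a small subunit of complex IV, had a difference of 0.17 (SE 0.074, adjusted p = 0.521) and Ndufb1 one of 0.21 (SE 0.12, adjusted p = 0.577), which was 0.091 without conditioning replicate 4. All 5 probe sets of complex II were lower after conditioning than after pain, with a median of -0.081 (-0.13 without pain replicate 4), and 0 of them had an unadjusted p under 0.05. The markers in this contrast were higher in 11 of 11 oligodendrocyte, 9 of 13 astrocyte, 5 of 7 microglial and 3 of 3 vascular probe sets. They were lower in 8 of 9 striatal and 7 of 8 GABAergic ones. Blood markers summed to between 3061 and 5036 after conditioning, above all pain arrays (1590 to 2293).

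Conditioning under isoflurane minus conditioning compares both conditioned groups, with and without the anaesthetic. Both directions held 2 of 82 members at an unadjusted p under 0.05 (2.44%), the lower side against 1.90% over all tested probe sets and the higher side against 1.79%. Members without overlap numbered 0, against 0.704% of all tested probe sets. Ndufa13 gave the values above, against 11.70, 11.85, 11.64, 11.74 and 11.59 after conditioning, a difference of -0.18 (SE 0.080, adjusted p = 0.9995). Ndufb9, an accessory subunit, gave 12.40, 12.50, 12.57, 12.33 and 12.47, against 12.76, 12.72, 12.65, 12.41 and 12.53 after conditioning, a difference of -0.16 (SE 0.074). Uqcrc1 gave 12.35, 12.25, 12.12, 12.09 and 12.14, against 12.08, 11.88, 11.84, 12.28 and 11.89 after conditioning, a difference of 0.19 (SE 0.084). Ndufaf3 had one of 0.22 (SE 0.10), which was 0.12 without conditioning replicate 5. Further from the threshold were Ndufs8 at 0.16 and Cox4i1 at -0.084. In complex IV, 10 of 12 probe sets were lower, with a median of -0.069 (-0.041 without conditioning under isoflurane replicate 1). Of the markers, 11 of 11 oligodendrocyte, 11 of 13 astrocyte and 7 of 7 microglial probe sets were lower here. Higher were 9 of 9 striatal, 7 of 8 GABAergic and 3 of 3 vascular probe sets.

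Conditioning under isoflurane minus isoflurane compares both groups exposed to the anaesthetic, with and without conditioning, and kit and group cannot be told apart in it. Here 61 of 82 members were lower, with a median of -0.051 against 0.0023 over all tested probe sets. Without isoflurane replicate 2 the member median was -0.022. At an unadjusted p under 0.05, 5 were lower (6.10%), against 2.12% over all, and 0 were higher, against 1.88% over all. Cox5a gave 7.59, 7.59, 7.57, 7.70 and 7.75 after conditioning under isoflurane, against 7.65, 9.21, 8.87, 7.86 and 8.28 after isoflurane, a difference of -0.74 (SE 0.28, adjusted p = 0.998). The isoflurane arrays were scattered, with replicates 2 and 3 highest. Ndufb9 (-0.19, SE 0.074), Sdhd probe set 1388294_at (-0.15, SE 0.064), Ndufa13 (-0.17) and Uqcrfs1 (-0.17) completed the 5. Uqcrfs1 gave 11.59, 11.66, 11.63, 11.64 and 11.63, against 11.80, 11.97, 11.85, 11.70 and 11.67 after isoflurane. It was the only member without overlap, 1 of 82, against 0.924% of all tested probe sets. On the higher side Ndufa4l2, a paralog of Ndufa4, had a difference of 0.51 (SE 0.28), Cox7a1 one of 0.24 and Atp5f1e, the epsilon subunit of complex V, one of 0.075, with an adjusted p of 0.998 each. Without isoflurane replicate 5 that of Cox7a1 was 0.093. For Atp5f1e it was 0.029 without conditioning under isoflurane replicate 2 and 0.031 without isoflurane replicate 3. Of 9 striatal probe sets 8 were higher in this contrast, as were 3 of 3 vascular and 9 of 13 astrocyte probe sets.

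The interaction asks whether the effect of conditioning differed with the anaesthetic, as its effect with the anaesthetic (against isoflurane alone) less its effect without (against baseline). At an unadjusted p under 0.05, 4 of 82 members were below 0 (4.88%), against 2.41% over all tested probe sets. Above 0 were 0 members, against 2.38% over all. With baseline replicates 1 to 5 alone 1 was below 0 (1.22%, against 2.09% over all) and 0 above (against 1.88%). With replicates 6 to 9 alone 5 were below 0 and 5 above (6.10% each, against 5.49% and 5.15% over all). The member median was -0.0235 with all baseline arrays, -0.0249 with replicates 1 to 5 and 0.0155 with replicates 6 to 9. The 4 members below 0 with all baseline arrays were Uqcrq (-0.23, SE 0.10), Ndufb9 (-0.22, SE 0.098), Cox5a (-0.82, SE 0.38) and Ndufaf4 (-0.42), with an adjusted p of 0.959 each. Above 0 the lowest p were those of Ndufv3 (0.33, SE 0.16), Atp5mc3, a copy of the ring subunit of complex V (0.18, SE 0.099), and Ndufaf3 (0.25, SE 0.14, or 0.15 without conditioning replicate 5). In complex IV, 11 of 12 probe sets were below 0, with a median of -0.068 (-0.034 with baseline replicates 1 to 5 alone), and in complex I 17 of 41. Of the markers, 11 of 11 oligodendrocyte and 6 of 7 microglial probe sets were below 0. Above 0 were 9 of 9 striatal and 7 of 8 GABAergic probe sets. No difference in the effect of conditioning on any member was therefore shown.

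**Figure D4:**
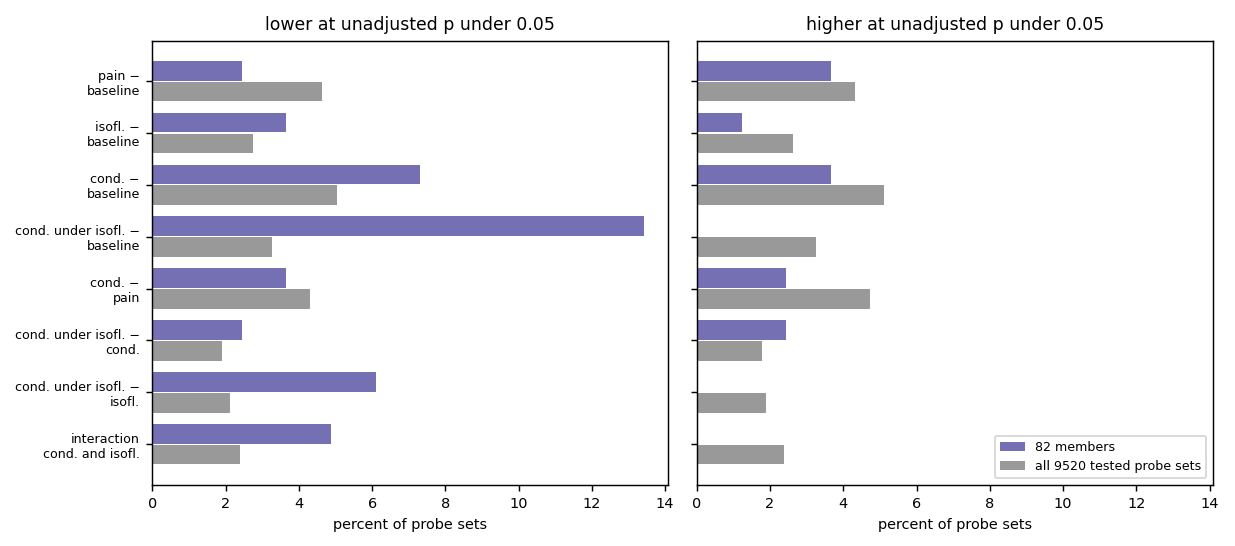
Percent of probe sets lower (left) and higher (right) at an unadjusted p under 0.05 in each of the 8 contrasts, for the 82 members and for all 9520 tested probe sets. The members reach 13.4% on the lower side in conditioning under isoflurane minus baseline, where all probe sets reach 3.26%, and 0 of them is higher there.

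The size of these medians depended on how the arrays were scaled. Centring each array on its median moved the median of all tested probe sets by -0.11 in pain minus baseline, and the member median there to -0.19. Under that centring the member median was -0.12 in conditioning under isoflurane minus baseline, against -0.030 over all tested probe sets, and -0.15 in conditioning minus baseline, against -0.060 over all. It moved 18 of the 51 named differences by over 1.5 times or turned them, among them Uqcrq (0.079) and Atp5mf (0.0077) in conditioning minus baseline and Cox4i1 (-0.19) in conditioning under isoflurane minus baseline. With the scaling of the authors kept as deposited, the member medians in these contrasts were -0.076 and -0.076. The member median stayed below 0 in 42 of 42 settings in conditioning minus baseline, in conditioning under isoflurane minus baseline and in conditioning under isoflurane minus isoflurane. Leaving out an array of a group outside a contrast cannot change its median. Many of these settings therefore could not differ from the main fit, and the counts do not measure stability. In pain minus baseline the member median was below 0 in 41 of 42 settings, in conditioning minus pain in 40 of 42, and in isoflurane minus baseline in 9 of 42.

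**Figure D5:**
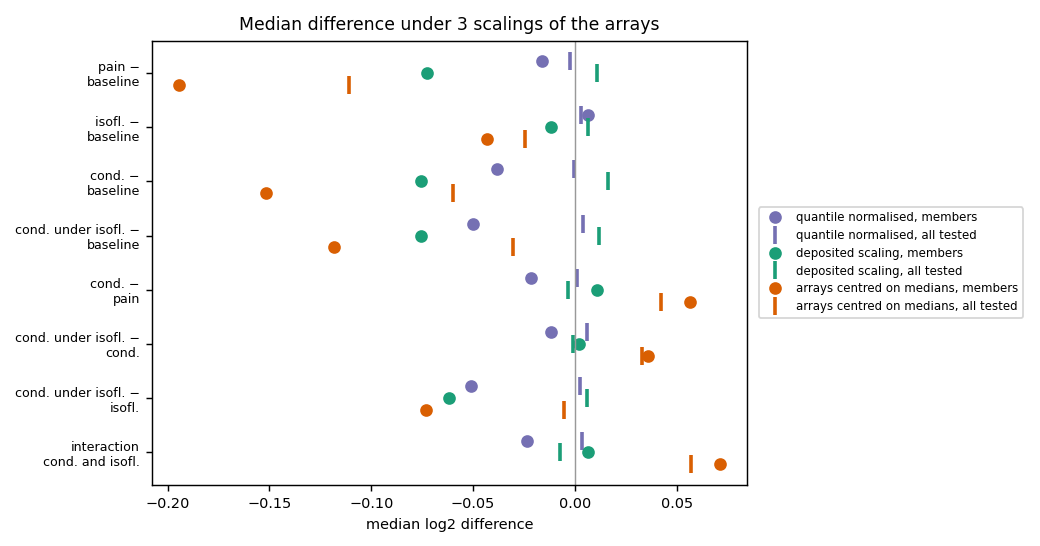
Median log2 difference of the 82 members (circles) and of all tested probe sets (bars) in each contrast, under quantile normalisation, the deposited scaling and centring of each array on its median. In conditioning under isoflurane minus baseline the circles lie at -0.050, -0.076 and -0.12, left of the bars in each case.

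Related mitochondrial genes were read from lists written beside the members. Of 16 tested probe sets of the citric acid cycle, which supplies the electrons, 11 were lower in conditioning under isoflurane minus baseline, with a median of -0.069, and 12 in conditioning minus baseline, with a median of -0.060. Of 20 probe sets of electron carriers and assembly factors, 9 were lower in conditioning under isoflurane minus baseline, with a median of 0.012. Of 11 probe sets for nucleotide and phosphate exchange, 6 were lower there, with a median of -0.037. At an unadjusted p under 0.05, 4 of these 11 were lower in conditioning minus baseline, against 5.03% over all tested probe sets, and 1 was higher. In conditioning minus pain 4 of the 11 and 5 of the 20 for electron carriers and assembly factors were lower at that threshold, against 4.31% over all. There 0 of the 11 and 1 of the 20 were higher. Of the regulators of mitochondrial gene expression only 4 probe sets passed the filter, and 3 of them were lower after pain at an unadjusted p under 0.05, against 4.63% over all tested probe sets. These were Tfam, which packages and transcribes mitochondrial DNA (-0.26), Polrmt, the mitochondrial RNA polymerase (-0.76), and Gabpb1, a subunit of GABP (-0.22). They were not examined without pain replicate 3, the array that stood apart. In every other contrast 0 of the 4 were past that threshold in either direction. In all 4 lists and all 8 contrasts 0 probe sets were called.

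Markers of other cells lay higher or lower in the same contrasts, and 0 of their tested probe sets were called in any contrast. After conditioning under isoflurane, against baseline, 9 of 13 astrocyte, 8 of 11 oligodendrocyte, 3 of 3 vascular and 5 of 7 microglial probe sets were higher. Lower were 5 of 9 striatal and 5 of 8 GABAergic probe sets. At an unadjusted p under 0.05, 4 astrocyte and 3 vascular probe sets were higher there, against 3.25% over all tested probe sets. For oligodendrocyte, microglial, striatal and GABAergic probe sets that count was 0 in either direction. Probe sets of the same gene are counted apart, and the 13 astrocyte probe sets stand for 8 genes. The summed astrocyte signal ran from 38870 to 49000 after conditioning and from 36280 to 43110 after conditioning under isoflurane, against 31210 to 39160 at baseline. For oligodendrocytes the sums ran from 31950 to 43850 and from 27750 to 36260 in the same order, against 24020 to 39340 at baseline. For the striatal list they ran from 4930 to 12420 and from 7421 to 10670, against 5436 to 17800 at baseline. For the vascular list they ran from 1032 to 1314 and from 1001 to 1314, against 829.7 to 1072 at baseline. General neuronal markers summed to between 22050 and 26220 after conditioning and 22510 and 25100 after conditioning under isoflurane, against 22230 to 24380 at baseline. Projection neuron markers summed to between 19810 and 23980 and between 19680 and 23890 in the same order, against 17980 to 26880 at baseline. Of 8 tested probe sets of that list, 6 were lower than at baseline after pain (median -0.12) and 5 after isoflurane (-0.022). After conditioning 5 were lower (-0.042), and after conditioning under isoflurane 4 (0.039). After pain and after isoflurane the sums ran from 36400 to 40420 and from 33700 to 42650 for astrocytes, from 27730 to 38910 and from 27180 to 35950 for oligodendrocytes, and from 6270 to 13850 and from 6030 to 10320 for the striatal list. After pain blood markers summed to between 1590 and 2293, and after isoflurane to between 2394 and 4920. Their sums ran from 3061 to 5036 after conditioning and from 1962 to 4904 after conditioning under isoflurane, against 2375 to 6818 at baseline. The part of these shifts in the values of the members was not tested.

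The remaining 8 member probe sets lay below the filter and were not tested. They were the isoforms Cox4i2, Cox6a2, Cox6b2 and Cox8b, with mean log2 signals of 6.99, 6.28, 5.26 and 4.01, and further probe sets of Ndufv3, Atp5if1 (2 probe sets) and Atp5me, genes that had another probe set above it. Cox8b lay close to the floor of the scale at 4. Of the isoforms best known from muscle, lung or testis only Cox7a1 was tested, while the common partners Cox4i1, Cox6a1, Cox6b1 and Cox8a all were. Probe sets that carry several symbols, 7 of which include a member name, were left out, among them those of Ndufa10, Cox7a2, Atp5mc1 and Atp5mc2. Cox6c-ps1 is a pseudogene by its symbol, and its probe set may share sequence with Cox6c.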

How the data were processed

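Total RNA of rat basolateral amygdala was measured on 29 one-colour arrays. The deposited values are intensity signals, 1 per probe set, already scaled by the authors; the software is not given in the sources used here. All 29 sample columns were used. The mean of each array without its lowest and highest 2% lay between 500.08 and 500.12, and the number of arrays limits the precision. The deposited intensities were quantile normalised, values under 16 were set to 16, and log2 was taken. The test covered probe sets whose mean reached the 40th percentile (7.26), and 57 control rows were left out. Of 15866 probe sets, 12783 carry 1 symbol, 312 several and 2771 none, and all 90 members had a current gene record.

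Each probe set was fitted with limma 3.58.1 in R 4.3.3, with 1 mean per group over all arrays and eBayes with trend. The 8 contrasts and an F test were adjusted by Benjamini-Hochberg over 9520 probe sets at 0.05. Unadjusted p were counted at 0.05. The fit was tested on simulated data. Tables and figures used Python 3.11.15, pandas 2.3.3 and matplotlib 3.10.9.

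The members and all lists were chosen with earlier results of these data known. Named genes were the 3 members with the lowest p in each direction of each contrast (6 on the lower side in conditioning under isoflurane minus baseline), the 5 with the lowest F test p, core subunits, isoform sets, genes whose probe sets differ in sign, and members without overlap of arrays. Ndufa11, Atp5pd in conditioning under isoflurane, and Cox5a, Cox4i1 or Ndufaf4 in some contrasts were added after their values were seen. The groups labelled FC and IFC were read as conditioning and conditioning in isoflurane through the design text. Alternatives were the scaling, filter, floor, replicate block, arrays in the fit, baseline subset, variance prior, array weights, averaging per gene and leaving out each array.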

Additional observations from a re-analysis of the deposited data

Results flagged for a closer look

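Dixon's test was applied to 180 groups of arrays, 30 of them medians over members, and chance alone would mark about 1 in 20. It marked 14. After pain, the median deviation of complex II was -0.16 on replicate 4, against 0.028 to 0.10 on the other arrays. On the same array Sdhc read 11.14, against 11.49 to 11.58, and Ndufs1 read 10.25, against 10.38 to 10.41. Pain replicate 3 read 9.56 for Ndufv3, against 10.20 to 10.32, and 11.58 for Uqcrfs1, against 11.76 to 11.80. Pain replicate 1 read 9.30 for Ndufaf4, against 8.61 to 8.76.

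Conditioning under isoflurane replicate 1 was marked 3 times. It read 11.54 for Ndufb11, against 11.87 to 11.98 on the other arrays of the group, 11.90 for Uqcr10, against 12.23 to 12.30, and 12.05 for Cox7c, against 12.25 to 12.30. Replicate 3 of that group read 10.07 for Ndufs1, against 10.18 to 10.20. Ndufv3 had a low array in 2 further groups, at 9.84 on isoflurane replicate 4, against 10.10 to 10.19, and at 9.79 on conditioning replicate 2, against 10.13 to 10.20. Conditioning replicate 1 read 9.10 for Cox5a, against 7.72 to 8.00. Baseline replicate 8 read 11.63 for Ndufb1, against 10.99 to 11.24.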

How the results depend on the processing

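Over 41 alternatives, 29 of which left out 1 array, the 51 named values of 30 genes gave 2033 values, of which 2029 kept direction and side of the threshold. One became a call: Ndufaf8 in conditioning minus baseline with baseline replicates 6 to 9 only. The reversals were Ndufa8 (-0.056) and Ndufs7 (-0.030) in pain minus baseline with arrays centred on their medians, and Uqcr10 (-0.0027) in conditioning under isoflurane minus baseline with baseline replicates 6 to 9 only. Leaving out an array of a group outside a contrast cannot change a log2 difference in that contrast. Many of the 2033 values therefore could not change direction. The named values were also chosen for a low p, so the count of 2029 does not measure stability. With medians centred, pain minus baseline had 10 calls over all probe sets and isoflurane minus baseline 0. The member medians there were -0.19 in pain, -0.15 in conditioning and -0.12 in conditioning under isoflurane minus baseline, 0.056 in conditioning minus pain and 0.071 in the interaction. With the deposited scaling the member median in pain minus baseline was -0.072. Without a filter the F test made 2 calls, and a filter at percentile 70 left 4 in pain minus baseline. Without the variance trend conditioning minus pain had 2 calls. With only the groups compared, isoflurane minus baseline had 0 calls.

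Baseline replicates 1 to 5 alone gave 0 calls in isoflurane minus baseline, 1 in conditioning minus pain, and 5 members lower at an unadjusted p under 0.05 in conditioning under isoflurane minus baseline (6.10%, against 2.38% over all). Baseline replicates 6 to 9 alone gave 160 calls after pain, 29 after isoflurane, 101 after conditioning and 57 after conditioning under isoflurane, 3 in the F test, 1 member called in conditioning minus baseline and 18 members lower as above (22.0%, against 6.85% over all). Array weights also gave 18, against 5.04% over all. The replicate block gave 0 calls in isoflurane minus baseline and 6 members lower as above (7.32%, against 2.49% over all). The named differences that moved under the block had the same values as with baseline replicates 1 to 5 alone. For the direction of these differences the block is therefore not a separate check. Same-numbered arrays are of different rats where rat numbers are given, and their deviations correlated between -0.036 and 0.041 on average, so the numbers were not taken to pair the samples.

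Leaving out 1 array gave 0 to 6 calls in pain minus baseline (6 without baseline replicate 3, 5 without baseline replicate 4, 3 without conditioning under isoflurane replicate 1, 2 without pain replicate 4). It gave 0 to 3 in conditioning minus pain (3 without pain replicate 4, 2 without pain replicate 1, 1 without pain replicate 2, conditioning replicate 5 or baseline replicate 6) and 0 to 1 in the F test (1 without pain replicate 4). Isoflurane minus baseline had 0 to 1 (0 without isoflurane replicate 1, 3, 4 or 5). Members lower at an unadjusted p under 0.05 in conditioning under isoflurane minus baseline numbered 7 to 14, with 7 without replicate 1 of conditioning under isoflurane, and members lower at any p numbered 53 to 64. The cause of these changes was not tested. The size of each group limits what can be called.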
